A study of Mus musculus with 2 samples.

Results

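Protein kinases and kinase-like proteins that are tied to the serum response of fibroblasts were followed in 9 genes: the protein kinases Sgk1, Plk2, Plk3, Sik1, Pim1, Pim3 and Map3k8 and the pseudokinases Trib1 and Trib2. They were chosen by name, and every non-control array probe whose gene name was among these 9 symbols was taken, which gave 11 of the 39425 probes and 9 of the 28312 named genes. RNA came from an immortalized line of mouse embryonic fibroblasts (MEF) of the genotype Rosa26ERT2 Cre: THOC5 (flox/flox), on the strain background C57BL/6 x B6:129 Ola. Both groups carry the floxed Thoc5 alleles and the Cre recombinase, which is expressed from the Rosa26 locus and activated by tamoxifen. THOC5 is a subunit of the THO complex, which takes part in the processing and export of messenger RNA. The control group is the array labelled wildtype, whose cells received no tamoxifen. The THOC5-depleted group is the array labelled THOC5 knockdown, whose cells were pre-treated with tamoxifen for 2 days according to the labels. The study's cell culture methods give a shorter tamoxifen pulse followed by growth medium and starvation, while its chromatin precipitation methods and several captions also give 2 days. By the study's methods, cells of both groups were starved of serum before stimulation, so the unstimulated cells are starved ones. On each array, Cy3 marked RNA of the unstimulated cells and Cy5 RNA of the cells after 1 h of fetal calf serum (FCS). There was 1 array per group and no exchange of dyes. The comparison asks whether the serum response of these genes differs when THOC5 is depleted.

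All values below are therefore single measurements, and no test between the groups was made. Differences of culture, of array position and of tamoxifen exposure cannot be told apart from the depletion. In RNA of a whole culture, fewer responding cells and less RNA per cell cannot be told apart either. The error given after a log2 value is the scanner software's own error of that log ratio, which covers the spots and not the biology. Between spots of one repeated probe, the SD of the log2 ratio had a median of 0.0285 on the control array (n = 237 probes) and 0.0304 on the THOC5-depleted array (n = 239 probes). The targeted gene, Thoc5, stood 7.10-fold below the control level before serum and 5.39-fold below it after serum on the array labelled THOC5 knockdown. All 8 fibroblast markers were well above background in both groups, with unstimulated signals of 6360 to 105420 in control cells and 3783 to 93361 in depleted cells, and 0 of 4 haematopoietic markers were. Signals well above background were also seen for 2 of 4 epithelial markers (Krt8 and Krt18, at up to 97.6 and 88.9), for 3 of 3 endothelial markers (42.7 to 902 and 21.7 to 805) and for 2 of 4 markers of muscle and neurons (Myod1 and Tubb3, at up to 5548 and 4036), and their part in the results was not tested.

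These proteins share the kinase fold but work in different ways. Sgk1 is a serine/threonine kinase of the AGC group that acts downstream of PI3-kinase on ion channels and transcription factors. Plk2 and Plk3 are polo-like kinases that act in the cell cycle and in stress responses, and both were first described as genes induced by serum or growth factor. Sik1 is a salt-inducible kinase that holds the CREB coactivators of the Crtc family in the cytoplasm. Pim1 and Pim3 belong to a family of kinases that are active as soon as they are made, so that their abundance sets their activity. Map3k8, also called Tpl2 or Cot, phosphorylates the MAP kinase kinases that lead to ERK. Trib1 and Trib2 have a kinase fold with little or no catalytic activity and act as scaffolds that bring substrates such as C/EBP transcription factors to the ubiquitin ligase Cop1. In fibroblasts, immediate early genes of this kind are switched on by serum through factors that are already present, among them CREB at the cAMP response element (CRE) and the serum response factor at the CArG box.

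Promoter sequence was used for 6 of the 9 genes (Sgk1, Plk2, Plk3, Pim1, Pim3 and Trib2) and not for Trib1, Sik1 and Map3k8, whose motifs were not searched. It is from RefSeq, mouse build GRCm38.p6, as 12 windows that run from 250 bases before to 50 bases after a start. The 250 bases before the start are shown for the pair of polo-like kinases. Among the genes searched, only these had a CRE or its core close to the start. Capitals mark the CRE (TGACGTCA) in Plk2 and the core of the CRE (TGACG) in Plk3. The Plk2 stretch is chr13:110394794-110395043 on the plus strand and the Plk3 stretch is chr4:117133964-117134213 on the minus strand.
Plk2: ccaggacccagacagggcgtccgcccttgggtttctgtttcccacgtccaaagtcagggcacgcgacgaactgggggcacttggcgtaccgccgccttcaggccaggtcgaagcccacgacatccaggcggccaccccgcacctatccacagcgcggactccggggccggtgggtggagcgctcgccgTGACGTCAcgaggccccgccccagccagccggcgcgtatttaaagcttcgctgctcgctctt
Plk3: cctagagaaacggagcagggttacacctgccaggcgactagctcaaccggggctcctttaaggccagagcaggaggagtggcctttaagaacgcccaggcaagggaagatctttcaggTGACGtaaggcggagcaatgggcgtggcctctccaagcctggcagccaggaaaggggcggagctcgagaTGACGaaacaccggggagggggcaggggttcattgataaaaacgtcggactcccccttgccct

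The CRE of Plk2 began 62 bases before the start, and the cores of Plk3 began 132 and 63 bases before it. Plk2 had a further core, on the other strand, shortly after the start and outside the stretch shown. Both motifs were searched on both strands, and a CRE also holds the core. Among 32851 promoter windows of the same 300 bases, 1.79% held the CRE and 20.8% held the core. Sgk1 was the third gene with a core, 236 bases before the start of 1 of its 6 windows, so that 3 of the 12 windows had it. The CArG box (CC, then 6 of A or T, then GG) was in 0 of the 12 windows and in 1.63% of all windows. The TATA box (TATAAA) was in 2 of the 12 windows and in 13.6% of all windows. Both were alternative starts of Sgk1, which held 6 of the 12 windows and was the only one of the 6 genes searched with this motif. They are shown with the TATA box in capitals (chr10:21992183-21992212 and chr10:21994643-21994672, plus strand).
Sgk1 start a: atttcctttagaTATAAAgtgggactcaga
Sgk1 start b: cggcgcagggctTATAAAgccggtcgcgcg
These boxes began 28 and 11 bases before their starts. A match of letters is a description of the window and does not show that a factor binds there.

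Of the 9 genes, 8 had a higher signal after serum than before it on both arrays, and Trib2 had a lower one on both. A ratio of Cy5 over Cy3 of 2 or more was reached by 5 of the 9 genes in control cells (Sgk1, Plk3, Pim1, Pim3 and Trib1), where 2.37% of all 17787 genes well above background in both channels reached it. In THOC5-depleted cells it was also reached by 5 of the 9 (Sgk1, Plk2, Plk3, Pim1 and Trib1), against 0.863% of 17855 genes. A ratio of 0.5 or less in control cells was seen for 1 of the 9, Trib2, against 1.52% of all genes. Over the 9 genes the median log2 ratio was 1.18 in control cells and 1.01 in depleted cells, while the medians over all 17239 genes well above background in all 4 channels were -0.02 and -0.01. Genes whose names were already known to respond to serum are expected in such a set by its choice, so these counts describe the set and are no test of it.

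**Figure D1:**
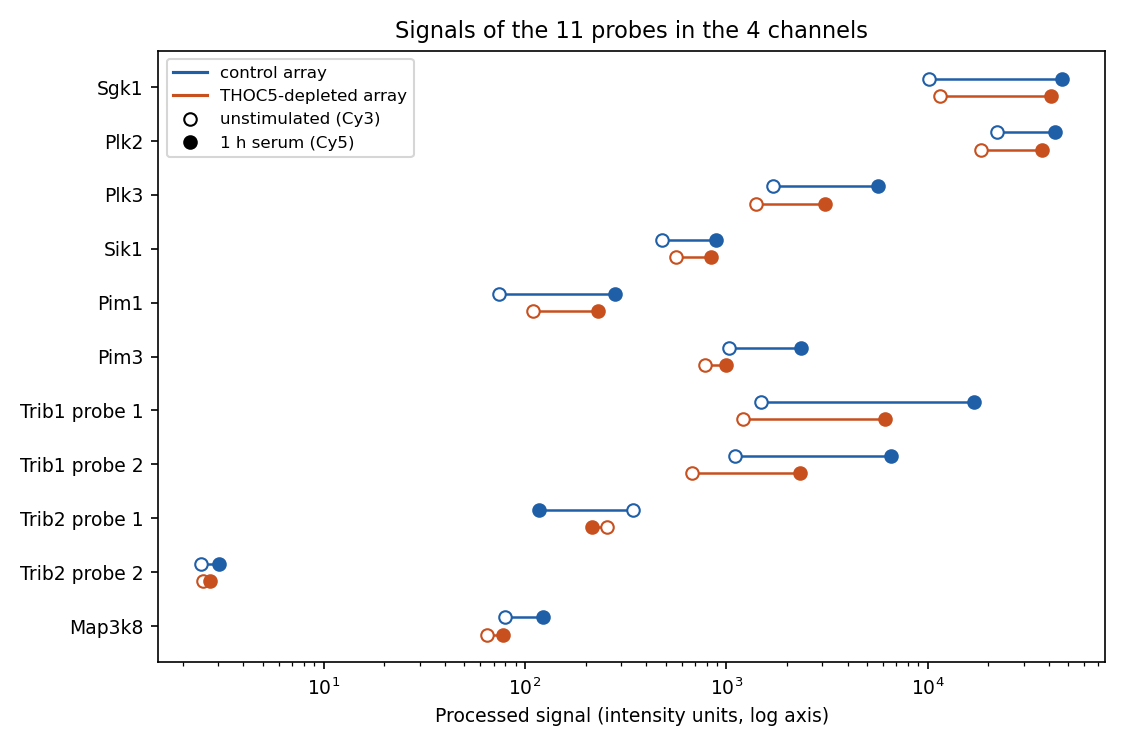
Processed signal of each of the 11 probes (intensity units, log axis) in unstimulated cells (open circles) and after 1 h of serum (filled circles) on the control array (blue) and the THOC5-depleted array (orange), 1 value per point. The line lengthens to the right for the genes that were higher after serum, and for Trib2 probe 1 the filled circle lies left of the open one on both arrays.

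Among the kinases, Sgk1 had the highest serum ratio on both arrays. Its signal went from 10167 to 46333 in control cells and from 11582 to 41092 in depleted cells. The ratios were 4.56 and 3.55, or 2.19 ± 0.29 and 1.83 ± 0.26 on the log2 scale. Both stimulated signals lay far above both unstimulated ones, and the difference between the ratios (-0.36 ± 0.39) was smaller than its error. The Sgk1 probe lies at chr10:21719507-21719566 on the plus strand of mm9, the build of the probe positions throughout.

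For the polo-like kinase Plk2 (chr13:111190915-111190974) the signal rose from 22171 to 42879 in control cells and from 18374 to 37042 in depleted cells. The ratios of 1.93 and 2.02 were 0.95 ± 0.22 and 1.01 ± 0.22 on the log2 scale, so that Plk2 stood just below 2-fold on one array and just above it on the other, and the difference of 0.06 ± 0.32 was within its error at this setting. For Plk3 (chr4:116801317-116801376, minus strand) the signal rose from 1707 to 5656 in control cells and from 1403 to 3087 in depleted cells. Its ratio was 3.31 (log2 1.73 ± 0.26) in control cells and 2.20 (log2 1.14 ± 0.23) in depleted cells, a 1.51-fold reduction. The log2 difference of -0.59 ± 0.35 was larger than its error but not larger than 2 errors, and the unstimulated signals of the arrays lay close together while the stimulated ones did not.

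Sik1 and Map3k8 had small ratios. The Sik1 signal (chr17:31981255-31981314, minus strand) rose from 481 to 887 in control cells and from 561 to 841 in depleted cells, which gave ratios of 1.84 and 1.5 (log2 0.88 ± 0.22 and 0.58 ± 0.21). These signals are of arrays not yet scaled to each other, and the log2 difference of -0.30 ± 0.30 did not exceed its error. The Map3k8 signal (chr18:4331599-4331658, minus strand) was dim on both arrays and rose from 79.3 to 122 in control cells and from 64.9 to 77.8 in depleted cells. Its ratios were 1.54 and 1.2 (log2 0.63 ± 0.22 and 0.26 ± 0.22), and the log2 difference was -0.37 ± 0.31. The difference exceeded its error, but not 2 errors.

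For both Pim kinases the difference between the arrays exceeded 2 errors. The Pim1 signal (chr17:29630740-29630799) rose from 74.0 to 281 in control cells and from 110 to 229 in depleted cells, ratios of 3.80 and 2.09. On the log2 scale these were 1.92 ± 0.27 and 1.06 ± 0.23, with a difference of -0.86 ± 0.36 and a 1.82-fold reduction. The unstimulated Pim1 signal was the higher one on the depleted array, and the stimulated signal was the lower one. The Pim3 signal (chr15:88695626-88695685) rose from 1035 to 2352 in control cells and from 784 to 999 in depleted cells, signals of arrays not yet scaled to each other. The Pim3 ratios were 2.27 and 1.27 (log2 1.18 ± 0.23 and 0.35 ± 0.21), a difference of -0.84 ± 0.31 and a 1.78-fold reduction. Pim3 was thus past 2-fold in control cells and not in depleted cells, whereas Pim1 was past 2-fold in both. After normexp background correction and loess, Pim1 no longer reached 2-fold in depleted cells (log2 0.91), which left 4 of the 9 genes past 2-fold there, against 0.538% of all genes at that setting.

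Trib1, which binds C/EBPα and the ubiquitin ligase Cop1, had the highest serum ratio of the 9 genes on both arrays by its brighter probe. At its brighter probe (chr15:59487662-59487721) the signal rose from 1489 to 16944 in control cells and from 1217 to 6148 in depleted cells. The ratios were 11.4 and 5.05, or 3.51 ± 0.39 and 2.34 ± 0.30 on the log2 scale. The unstimulated signals were similar on the arrays and the stimulated ones far apart, and the difference of -1.17 ± 0.49 was a 2.25-fold reduction. The dimmer probe (chr15:59487475-59487534), whose start lies 187 bases away, rose from 1106 to 6602 and from 674 to 2323. Its ratios were 5.97 and 3.45 (log2 2.58 ± 0.31 and 1.78 ± 0.26), with a difference of -0.79 ± 0.41 and a 1.73-fold reduction. In depleted cells the ratio at this probe lay just below that of Sgk1 (3.55). Both probes thus had the lower ratio in depleted cells, but they lay on either side of 2-fold for the size of the reduction.

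The gap between the Trib1 probes was 0.93 (log2) in control cells, 0.55 in depleted cells and 0.38 for the difference. Among 101 genes with a ratio of 2 or more on either probe in control cells and 2 probes well above background, the median gaps were 0.41, 0.23 and 0.31. A gap at least as large as that of Trib1 was found for 26, 20 and 46 of these 101 genes. Among all 3747 genes with 2 such probes, whatever their ratio, the median gaps were 0.15, 0.14 and 0.15, and 77, 162 and 644 genes had a gap at least as large.

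Trib2 ran the other way. At its brighter probe (chr12:15799009-15799068, minus strand) the signal fell from 345 to 118 in control cells and from 255 to 215 in depleted cells. The signal after serum was 2.92-fold lower than before it in control cells and 1.19-fold lower in depleted cells, or -1.55 ± 0.25 and -0.25 ± 0.21 on the log2 scale. The difference of 1.3 ± 0.32 was 4.0 times its error, the highest multiple of the 9 genes. The second Trib2 probe (chr12:15822772-15822831), 23763 bases away, was not well above background in any channel, with signals of 2.48 and 3.03 in control cells and 2.53 and 2.74 in depleted cells. The Trib2 values therefore rest on 1 probe with no second probe to set beside it.

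**Figure D2:**
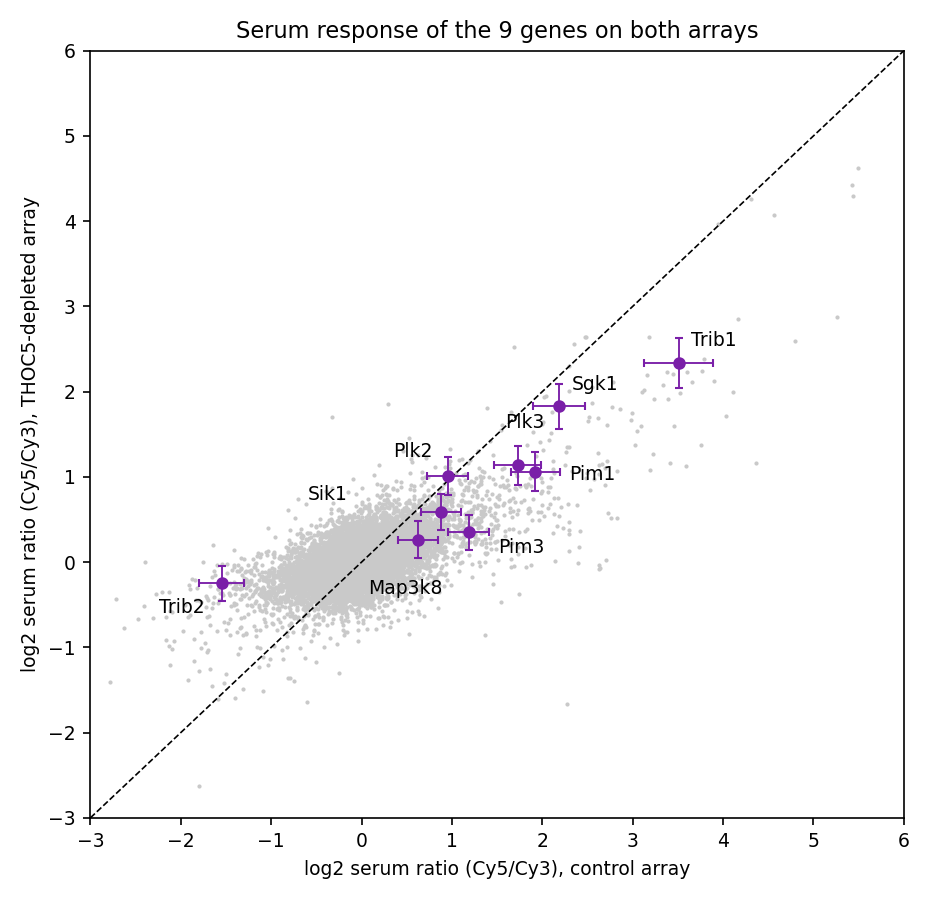
log2 serum ratio (Cy5 over Cy3) on the control array (x axis) against that on the THOC5-depleted array (y axis) for the 9 genes (purple, with the software's error of each log ratio) and all genes well above background in all channels (grey); the dashed line marks equal ratios. Plk2 lies on the line, 7 genes lie below it and Trib2, with -1.55 and -0.25, lies above it.

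In the order of the control ratios (Trib1, Sgk1, Pim1, Plk3, Pim3, Plk2, Sik1, Map3k8, Trib2), the step to the next gene exceeded its error in 3 of 8 places. These were Trib1 to Sgk1 (1.32 ± 0.48), Plk3 to Pim3 (0.54 ± 0.35) and Map3k8 to Trib2 (2.17 ± 0.33), and the other neighbours in this order did not differ beyond their errors. In depleted cells the order was Trib1, Sgk1, Plk3, Pim1, Plk2, Sik1, Pim3, Map3k8 and Trib2, with 4 of 8 steps above their error. Pim3 thus moved from the fifth place to the seventh, and its step to Sik1 in depleted cells (0.24 ± 0.30) was within its error. Both orders use the brighter Trib1 probe. At the dimmer one Trib1 stood at 2.58 ± 0.31 in control cells, beside 2.19 ± 0.29 for Sgk1. In depleted cells this probe, at 1.78 ± 0.26, lay below Sgk1 at 1.83 ± 0.26, so the first place there depends on the probe.

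Of the 8 genes with a ratio above 1 in control cells, 7 had the higher ratio there, with Plk2 as the exception, against 77.3% of all 8055 such genes. The log2 difference exceeded its error for 6 of the 9 genes, against 25.4% of all 17239 genes, and exceeded 2 errors for 4 (Pim1, Pim3, Trib1 and Trib2), against 6.3%. With log ratios scaled to one spread, Pim1, Pim3 and Trib1 no longer exceeded 2 of these errors. Pim1 also fell short after normexp and loess (-0.66), as did Trib2 with the median of its probes (0.56). The limits of 1.3 and 2 for the fold reduction are those of the study, which set them on genes past a higher control ratio and a minimum signal, while here they were applied to every gene with a control ratio of 2 or more. A fold reduction of 1.3 or more was found for 4 of 5 such genes of the set, against 86.7% of all 414. A choice by the control ratio, here and for ratios above 1, by itself favours a lower ratio on the other array. This holds for the set and for all genes alike. The choice also left out Plk2, which was at 2 or more in depleted cells only. A reduction of more than 2-fold was found for 1 of the 5, Trib1, against 40.8%, and 3 lay between these limits (Plk3, Pim1 and Pim3). Sgk1, at 1.28, lay just below 1.3, and the dimmer Trib1 probe, at 1.73, lay below 2, so the places of both genes rest on small steps or on the probe. The median difference was -0.84 for these 5 genes and -0.91 for the 414 genes. Over all 9 genes the median was -0.37, and over all 17239 genes it was 0.01.

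The spread of log2 ratios was narrower on the depleted array over all genes, with a median absolute deviation 0.701 times that of the control array. Beside that factor, the depleted log2 ratio was 66.6% of the control one for Trib1, 65.8% for Plk3, 66.2% for Sik1 and 55.2% for Pim1. It was lower for Map3k8 (41.7%), Pim3 (29.5%) and Trib2 (16.1%). It was higher for Sgk1 (83.5%) and Plk2 (106%). Once the log ratios were scaled to one spread, the difference was -0.22 for Trib1, -0.12 for Plk3, -0.06 for Sik1, -0.38 for Pim1, -0.22 for Map3k8 and -0.59 for Pim3, it turned to 0.30 for Sgk1, and it grew to 0.39 for Plk2, beyond its error of 0.32. Centring on the spike-in probes, whose mean log2 ratio was 0.247 higher on the depleted array, gave -1.42 for Trib1 and -0.84 for Plk3, and turned Plk2 to -0.19. Under the 11 alternatives for the difference, Trib1, Pim1, Pim3, Plk3, Sik1 and Map3k8 were below 0 in all 11, Sgk1 in 10 and Plk2 in 2, and Trib2 was above 0 in all 11, from 0.56 to 1.33.

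**Figure D3:**
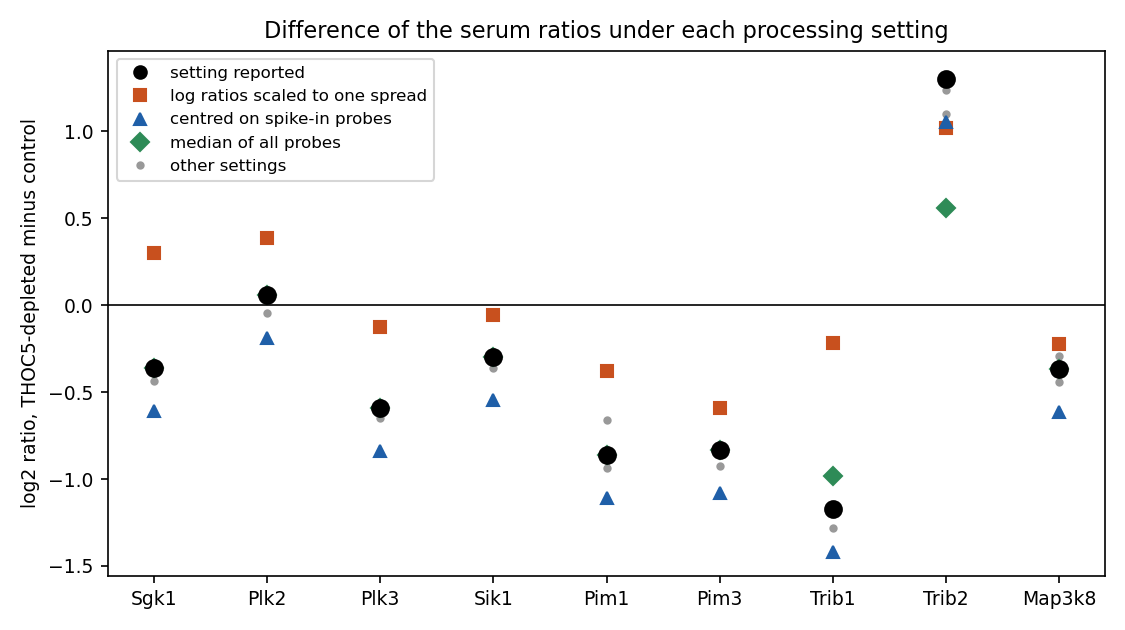
Difference of the log2 serum ratios, THOC5-depleted minus control, of each gene under each processing setting, 1 point per setting, with the setting reported in black. Scaling to one spread (squares) moves Trib1 from -1.17 to -0.22 and lifts Sgk1 above 0, while Trib2 stays above 0 under each setting.

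To compare levels between the groups, the channels of both arrays were scaled to each other by quantiles, which is less precise than a ratio within one array. In unstimulated cells, 0 of the 9 genes differed 2-fold in either direction, against 2.67% of 17239 genes. The nearest to it was Pim1, whose unstimulated level was 1.71-fold higher in depleted cells (log2 0.78). Sik1 (0.50) and Sgk1 (0.46) were also higher, and Plk3, Plk2 and the brighter Trib1 probe differed by 0.04 or less. The dimmer Trib1 probe differed by -0.40 before serum, so the probes of Trib1 did not give the same unstimulated difference. After serum, 2 of the 9 genes differed 2-fold, against 3.23% of all genes. Trib1 was 2.20-fold lower (log2 -1.14, and -1.19 at the dimmer probe), and Trib2 was 2.12-fold higher (log2 1.08). Pim3 was 1.91-fold lower (-0.94), Plk3 (-0.56) and Map3k8 (-0.49) were lower too, Sik1 was higher (0.20), and Pim1, Sgk1 and Plk2 lay within 0.10 of the control level.

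Among the 4 induced genes reduced 1.3-fold or more, the channel that differed between the arrays was not the same. For Pim3, Plk3 and the brighter Trib1 probe the unstimulated levels differed by about 0.10 or less and the stimulated levels by 0.56 or more. At the dimmer Trib1 probe both levels were lower in depleted cells (-0.40 before and -1.19 after serum), so the split for Trib1 depends on the probe. For Pim1 the stimulated levels differed by 0.08 and the unstimulated ones by 0.78. The median over the 5 induced genes of the set was 0.04 before serum and -0.56 after it, and over the 414 induced genes it was 0.27 and -0.59. Both groups of genes were chosen by a high control ratio. Such a choice by itself favours a lower control level before serum and a higher one after it.

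**Figure D4:**
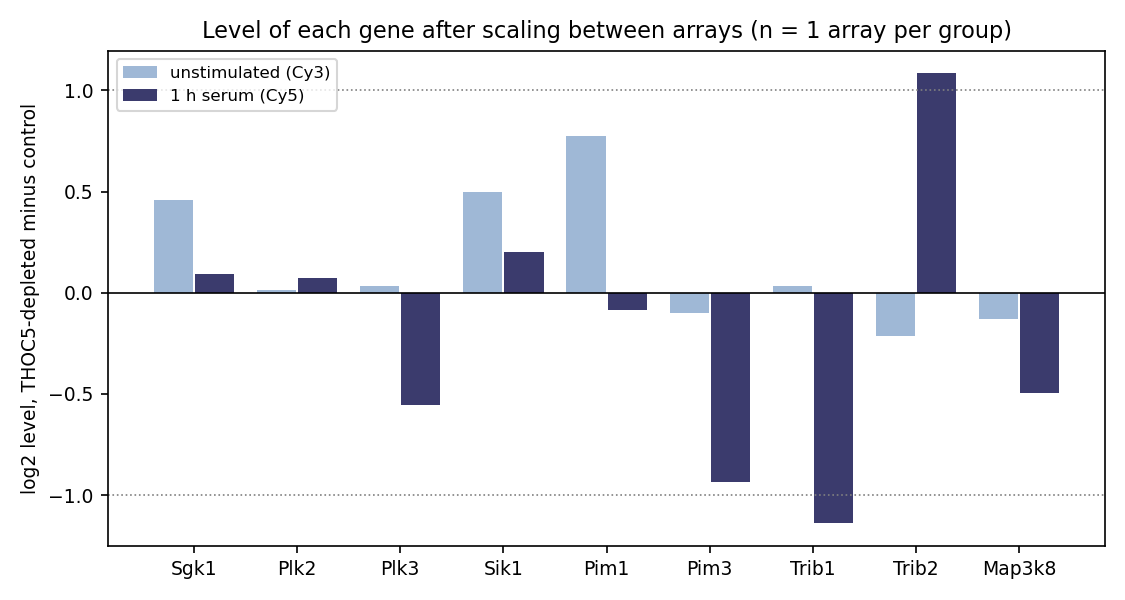
Difference of the log2 level, THOC5-depleted minus control, of each gene in unstimulated cells (light bars) and after 1 h of serum (dark bars), after quantile scaling between arrays, with 1 array per group and no error bars; dotted lines mark 2-fold. Trib1 (-1.14) and Trib2 (1.08) pass 2-fold after serum and no gene passes it before serum.

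Of 19 names listed as relatives, Plk1s1 was not found by that name on the array. The other 18, all of them Sgk, Plk, Sik, Pim, Trib and Map3k genes, were on the array, and 17 were well above background in all channels. A ratio of 2 or more was reached by 1 of them in control cells and by 0 in depleted cells, and a ratio of 0.5 or less by 0 on either array. Over all genes the shares were 2.37% and 0.863% for 2 or more and 1.52% and 0.258% for 0.5 or less, so these counts of the relatives lay near the background. That gene was Sik2, a salt-inducible kinase like Sik1, which went from 583 to 1205 in control cells (ratio 2.07) and from 785 to 970 in depleted cells (ratio 1.24). The median log2 ratio of the relatives was 0.13 in control cells and 0.04 in depleted cells. Trib3, the other Tribbles gene, was looked at after its values were seen. Its signal was 15077 and 15148 in control cells and went from 15941 to 25537 in depleted cells, ratios of 1.00 and 1.60. The 3 Tribbles genes thus showed a high ratio, a ratio below 1 and a ratio near 1 in control cells.

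Of 33 listed names of partners, upstream kinases and substrates, 2 (Rfwd2 and Cop1) stand for 1 gene. All 32 genes were on the array, and 30 were well above background in all channels. A ratio of 2 or more was reached by 3 of them in control cells and by 1 in depleted cells, against 2.37% and 0.863% of all genes, and the median log2 ratio was 0.03 and 0.04. Cdkn1a, the cell cycle inhibitor p21 and a substrate of Pim kinases, went from 252 to 1789 in control cells and from 350 to 733 in depleted cells. Its ratios were 7.09 and 2.10, a 3.39-fold reduction. Myc, a transcription factor whose protein is a substrate of Pim kinases, went from 9968 to 39391 and from 9873 to 19514, ratios of 3.95 and 1.98. Srf, the serum response factor, went from 4191 to 10416 and from 2312 to 4363, ratios of 2.49 and 1.89. All 3 had the lower ratio in depleted cells, where 86.7% of all genes with a control ratio of 2 or more were reduced 1.3-fold or more.

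For each gene of the set with a control ratio of 2 or more, the gene with the most similar pair of log2 ratios was sought among the 17238 other genes well above background in all channels, by the distance in the plane of the control and depleted values. For Trib1 this was Junb, a subunit of the AP-1 transcription factor, with ratios of 12.1 and 4.70 at a distance of 0.140. For Sgk1 it was 1700064E03Rik (4.32 and 3.38, distance 0.104), and for Plk3 it was Kcnj14, a potassium channel gene (3.27 and 2.07, distance 0.0904). The gene nearest to Pim1 was Ampd1, an AMP deaminase (3.76 and 2.01, distance 0.0599), and the one nearest to Pim3 was 4933407K13Rik (2.30 and 1.27, distance 0.0205). Likeness on 2 arrays describes a pair of ratios and no more.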

How the data were processed

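RNA was hybridised to 2 dual-color Agilent arrays, 1 per group, and grouped by the genotype labels. The authors deposited scanner output (Agilent Feature Extraction 10.7.3.1, probe positions on mm9), in which the processed signal is an intensity after background subtraction and linear and LOWESS dye normalization within each array, unscaled between arrays. The log ratio and its error in the deposited files are log10 values and were converted to log2 here. The deposited value table of the series, log10 ratios as well, holds 0 negative values and lacks the sign, while its size equalled the scanner's within 0.001 for 85.1% and 86.4% of 44397 features and 11 of 11 probes of the set, and it served as an alternative only.

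Each array had 43020 spots, of which the software called 62.1% to 64.4% well above background per channel and 0 saturated. Spots marked as outliers (239 and 234) were left out, repeated spots were combined as the mean log signal per probe, and the probe with the highest mean signal stood for a gene. The number of arrays limits the precision. Accessions matched the annotation for 26412 of 35777 named probes, and 3093 were renamed. Levels were scaled by Aquantile in limma 3.58.1 (R 4.3.3). The other steps used Python 3.11.15 with numpy 2.4.6, pandas 2.3.3 and matplotlib 3.10.9. Of these, only the combining of spots into probe ratios and their difference was tested on simulated data, with changes put into bright probes. The difference's error combines both arrays' errors.

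The genes and lists were chosen with earlier results of these data known. Named are all 9 genes with every probe, Thoc5, genes of both lists past 2-fold on either array, and the nearest gene by ratios of each gene with a control ratio of 2 or more; any other is marked. Alternatives were normexp (offset 50) with loess, no dye normalization, the value table, other probe rules, outlier spots kept, a floor of 50, filters on dim probes, thresholds of 1.5-fold and 4-fold, and other scalings and centrings. Which exon or UTR a probe lies in was not determined here.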

Additional observations from a re-analysis of the deposited data

How the results depend on the processing

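Of 143 alternative values of the medians and counts over the 9 genes, 121 stayed close to the reported value, 22 moved and 0 reversed. Without dye normalization, which shifts the median log2 ratio of all genes to 0.83 in control and 0.75 in depleted cells, the median of the 9 genes was 2.05 and 1.83, with 8 genes up 2-fold and 0 down in control cells (29.9% and 0.191% of all genes). Centring on spike-in probes, which shifts all genes to 0.60 and 0.36, gave medians of 1.80 and 1.38, 8 up and 0 down in control cells (all genes 11.5% and 0.332%), and 7 of these 8 reduced 1.3-fold or more and 3 over 2-fold (82.3% and 18.7%). With log ratios scaled to one spread, 1 induced gene was reduced 1.3-fold or more and 0 over 2-fold (67.5% and 22.2%). With the median of all probes, 0 genes were down in control cells and 1 differed 2-fold after serum (1.49% and 3.16%), since the Trib2 median then includes the probe not above background, and 0 were reduced over 2-fold (41.6%), since the mean of both Trib1 probes gives a difference of -0.98. At 1.5-fold, 8 genes were up in control cells and 1 differed before serum (6.25% and 9.7%). At 4-fold, 2 were up and 0 down in control cells (0.663% and 0.107%), 1 was up in depleted cells (0.185%), 1 induced gene was reduced 1.3-fold or more (88.9%), and 0 differed after serum (0.284%). The dye step left out with centring on the median and counts with no filter on dim probes were alternatives chosen after seeing the data. No paired analysis was possible because each group has 1 array. The lowest signals called well above background were 11.2 to 14 per channel, and Map3k8 at 64.9 to 122 stood nearest to them.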
